A study of Mus musculus with 4 samples.

Results

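The genes described here are 10 genes of the microtubule system and of neuronal migration: the tubulins Tubb3, Tubb2b and Tuba1a, the microtubule-associated proteins Map2, Mapt, Dcx and Dclk1, the dynein regulator Pafah1b1, and the stathmins Stmn1 and Stmn2. They were selected by gene symbol, and each was read from the brightest of the probe sets that the platform annotation gives to that symbol alone. All 10 were found among the 19938 genes with such a probe set. A probe set is the group of short DNA probes that reads one transcript on the array. The values are log2 brightness as deposited, so a difference of 1 is a doubling. Brightness depends on the probes, so levels were compared between arrays for one gene and never between genes.

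The samples were whole brains of C57BL/6J fetuses, an inbred mouse strain, at embryonic day 16. In the ethanol group the dams had received ethanol at 2.5 g per kg in saline, with injections on gestational days 14 and 16, and in the control group the same volume of saline alone. Both groups therefore shared the injections, and RNA from 3 mice was pooled for each Affymetrix whole-transcript array, with 2 arrays per group and 12 mice in all. The labels give the sex as unknown and do not assign litters to pools, so p-values measure only the spread between these pools.

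Microtubules are hollow filaments of alpha- and beta-tubulin that form the axon's core and the cage around the nucleus of a migrating neuron. A young cortical neuron extends a leading process and draws its nucleus after it along that cage, with the help of the motor dynein. Microtubule-associated proteins stabilise the filaments and stathmins bind free tubulin and favour disassembly. Mutations of TUBA1A, TUBB2B, DCX and PAFAH1B1 (LIS1) cause lissencephaly and related malformations of cortical folding and layering in people, and prenatal ethanol is known to disturb neuronal migration.

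Markers were read to check the labelled tissue and its evenness across pools. The 12 markers of neurons had median log2 values of 12.04 and 12.02 in ethanol 1 and 2 and 11.99 and 12.04 in control 1 and 2. Their median log2 difference was 0.04, with 8 of 12 higher in ethanol. Skeletal muscle markers differed between pools: 12 of 12 were highest in control 1, with medians of 7.44, 8.09, 9.74 and 7.46 in ethanol 1, ethanol 2, control 1 and control 2. The log2 of their summed linear brightness was 11.06 and 12.72 in the ethanol pools and 14.24 and 11.03 in the control pools. No marker was at 0, since every probe set on these arrays has a background brightness, and the lowest muscle value was 5.56. Markers of dividing cells were highest in control 1 in 9 of 9 genes and lowest in ethanol 1 in 8 of 9, with medians of 9.33, 9.68, 9.99 and 9.53 in the same order of pools. Ethanol means were lower in 12 of 12 muscle markers (median log2 difference -0.64) and 9 of 9 of dividing cells (-0.17). They were lower in 8 of 8 endothelial (-0.16) and 9 of 10 pericyte and meningeal markers (-0.21), and in 6 of 10 of neural progenitors (-0.01). The groups did not overlap in 0 muscle, 0 dividing cell, 4 endothelial, 2 pericyte and 0 progenitor markers, beside 31.4% of all genes. Sex-linked markers also differed between pools. Xist, a marker of female cells, read 11.96, 12.80, 6.10 and 12.84 in ethanol 1, ethanol 2, control 1 and control 2. In that order the Y-linked Uty read 9.75, 8.81, 10.34 and 8.72, and Eif2s3y 11.17, 10.04, 11.58 and 9.98. Male and female fetuses were thus unevenly spread over the pools. In whole-brain RNA, fewer cells of a type and less RNA per cell cannot be told apart.

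Of the 10 members, 5 had a higher and 5 a lower mean in ethanol, and the median log2 difference was -0.00035, beside 0.0088 over all 19938 genes. Tubb3 stood lowest, at -0.38, and the other 9 lay between -0.15 and 0.10. In limma's moderated fit 0 of the 10 passed an adjusted p under 0.05, where 0% of all genes were called, and 1 had an unadjusted p under 0.05, where 2.94% of all genes did. An ordinary linear model on the same values, with no variance shared between genes, gave 0 members at an unadjusted p under 0.05, where 3.85% of all genes had one. The count was 2 with trend and robust variance in limma (3.29% of all genes) and 3 without ethanol 2 (8.54% of all genes). A relaxed rule of an unadjusted p under 0.05 and a fold of at least 1.2 was met by Tubb3 alone, lower in ethanol, where 0.537% of all genes met it in that direction and 1.02% in either. The groups did not overlap in 5 members, 2 higher and 3 lower in ethanol, where 31.4% of all genes were so separated (17.4% higher and 14% lower). With 2 arrays per group the smallest p an exact two-sided permutation test can give is 0.333.

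**Figure D1:**
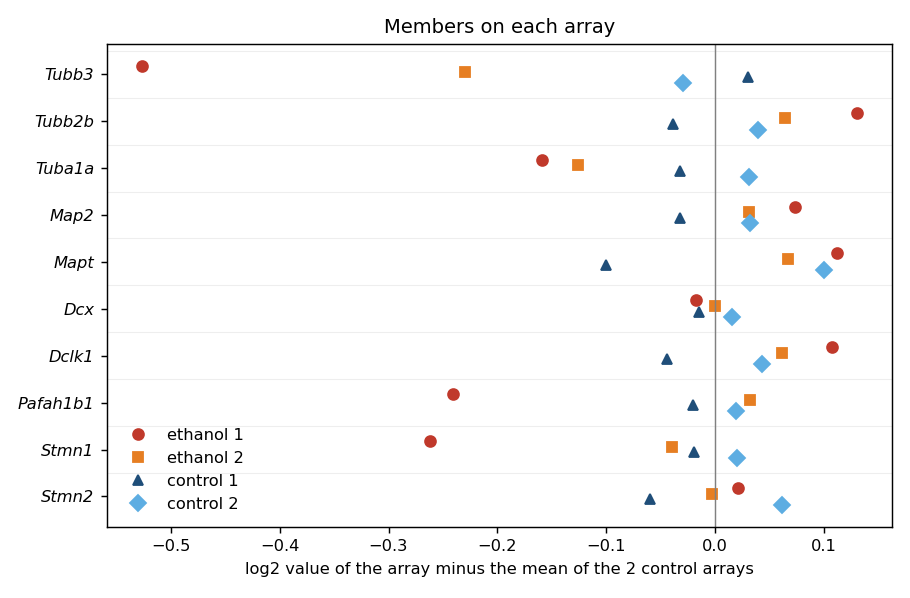
Log2 value of each member on each of the 4 arrays, drawn as the distance from the mean of the 2 control arrays (horizontal axis), with 1 symbol per array and a gene per line. Ethanol 1 lies far to the left in Tubb3, Pafah1b1 and Stmn1, and control 1 is the leftmost array in Tubb2b, Map2, Mapt, Dclk1 and Stmn2.

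Among the tubulins, Tubb3 and Tuba1a were lower on both ethanol arrays and Tubb2b was higher on both. Tubb3 encodes the class III beta-tubulin of neurons, widely used as a marker of newly born neurons. Ethanol 1 and ethanol 2 read 11.15 and 11.45 on the log2 scale, against 11.71 and 11.65 for control 1 and control 2. Both ethanol pools lay below both control pools, by 0.20 at the nearest, and the ethanol pools were themselves further apart (0.30) than the control pools (0.06). The log2 difference was -0.38 ± 0.11 (SE, 2 arrays per group; 95% confidence interval -0.65 to -0.10), so that the control level was 1.30 times the ethanol level. This did not pass the test over all genes (limma, adjusted p = 0.980; exact permutation p = 0.333). The size rested in part on ethanol 1: without that pool the difference was -0.23 and the fold fell under 1.2, and without ethanol 2 it was -0.53. Without control 1, the pool high in muscle and mitosis markers, it was -0.35. Ethanol 1 was also the pool lowest in the markers of dividing cells. Its median of the neuron markers was 12.04, beside 11.99 to 12.04 in the other pools. The part of cell composition in the Tubb3 difference was not tested.

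Tuba1a encodes the main alpha-tubulin of postmitotic neurons in the developing brain. Log2 levels of 13.87 and 13.91 were read in ethanol 1 and 2, and of 14.00 and 14.06 in control 1 and 2. The groups were 0.09 apart at the nearest, and the pools of a group differed by only 0.03 (ethanol) and 0.06 (control). Ethanol minus control gave -0.14 ± 0.07 (SE, 2 arrays per group; 95% confidence interval -0.31 to 0.03; limma, adjusted p = 0.980), and it stayed below 0 with any array left out, from -0.17 to -0.11.

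Tubb2b encodes a beta-tubulin of migrating neurons and radial glia. Ethanol 1 stood at 14.15 (log2) and ethanol 2 at 14.08, while control 1 stood at 13.98 and control 2 at 14.06. The groups did not overlap, but ethanol 2 exceeded control 2 by only 0.02, less than the 0.07 and 0.08 between pools of the same group. On the log2 scale the difference was 0.10 ± 0.07 (SE, 2 arrays per group; limma, adjusted p = 0.980), and it ranged from 0.06 to 0.14 with an array left out, lowest without control 1. Close sister genes such as Tubb2a and Tubb2b are nearly identical in their coding parts, and their probe sets may take up RNA of each other.

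Dcx was the member with the smallest range across the arrays. The promoters of Tubb3 and Tuba1a, members with both ethanol arrays below both controls, are shown beside its promoter for comparison. They are the 250 bases before the annotated start, from RefSeq on build GRCm38.p6, written 5′ to 3′ on the strand of the gene, with matches to TATAA and CCAAT on either strand in capitals. Tubb3 lies at chr8:123411303-123411552 (plus strand), Tuba1a at chr15:98953502-98953751 (minus strand) and the first of the 2 Dcx entries at chrX:143933220-143933469 (minus strand).
Tubb3: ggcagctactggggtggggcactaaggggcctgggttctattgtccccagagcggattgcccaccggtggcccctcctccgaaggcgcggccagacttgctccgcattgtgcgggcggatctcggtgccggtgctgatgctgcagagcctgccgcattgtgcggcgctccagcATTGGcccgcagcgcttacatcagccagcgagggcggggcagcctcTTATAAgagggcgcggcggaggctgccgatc
Tuba1a: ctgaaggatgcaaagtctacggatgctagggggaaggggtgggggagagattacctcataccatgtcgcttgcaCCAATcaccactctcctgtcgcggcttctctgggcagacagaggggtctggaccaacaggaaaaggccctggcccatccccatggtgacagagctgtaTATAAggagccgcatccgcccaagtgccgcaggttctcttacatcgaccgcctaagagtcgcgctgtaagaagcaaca
Dcx: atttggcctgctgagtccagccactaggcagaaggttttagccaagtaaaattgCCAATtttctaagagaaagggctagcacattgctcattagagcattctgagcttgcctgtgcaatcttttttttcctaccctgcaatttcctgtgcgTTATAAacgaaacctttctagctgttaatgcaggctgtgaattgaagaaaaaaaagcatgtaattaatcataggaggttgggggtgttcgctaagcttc

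Each of these 3 windows held both motifs. The second Dcx entry, which is not printed, held TATAA but no CCAAT. In Tubb3 the letters TTATAA, which match TATAA on both strands, begin 31 bases before the start, and ATTGG, the reverse complement of CCAAT, begins 77 bases before it. In Tuba1a they begin 78 and 176 bases, and in Dcx 99 and 196 bases, before the annotated start. Of the 32851 promoters of this table, 22.8% held TATAA and 33.8% CCAAT on either strand within 250 bases. The GC box GGGCGG, found in 32.7% of all promoters, occurred in Tubb3, Tuba1a and Map2, and the E box CANNTG, found in 66.2%, in Tuba1a and Dclk1. The GC content was 68.0% for Tubb3, 56.8% for Tuba1a and 41.6% for Dcx, beside a median of 52.4% over all promoters. Entries were matched for 6 of the 10 members (8 entries), and those not matched were Tubb2b, Mapt, Stmn1 and Stmn2. These matches describe the letters and were not tested against the expression values.

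Probe sets that Tuba1a and Tubb2b share with sister genes ran in the same direction as the sets of their own. The array holds 24 probe sets that list a tubulin gene, 7 of them with several symbols. All 5 that list a Tuba1 gene had both ethanol arrays below both controls, as did 14.7% of all 35556 probe sets. The 3 sets shared by Tuba1a, Tuba1b and Tuba1c had log2 differences of -0.08, -0.11 and -0.12, and the set shared by Tuba1b and Tuba1c alone stood at -0.15 ± 0.07 (SE). All 3 that list a Tubb2 gene had both ethanol arrays above both controls, as did 16.8% of all probe sets: the set of Tubb2b, the set of Tubb2a, a sister gene, at 0.15 ± 0.09, and the set shared with a Tubb2a pseudogene at 0.16 ± 0.08. Control 1 was the lowest array in each of these 3 Tubb2 sets. The sets within each of these families read overlapping or near-identical transcripts, so they are not independent of each other and their counts are not read against those shares. None passed the adjusted threshold when every probe set was tested (limma, adjusted p = 0.995 for each of the Tuba1 and Tubb2 sets).

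**Figure D2:**
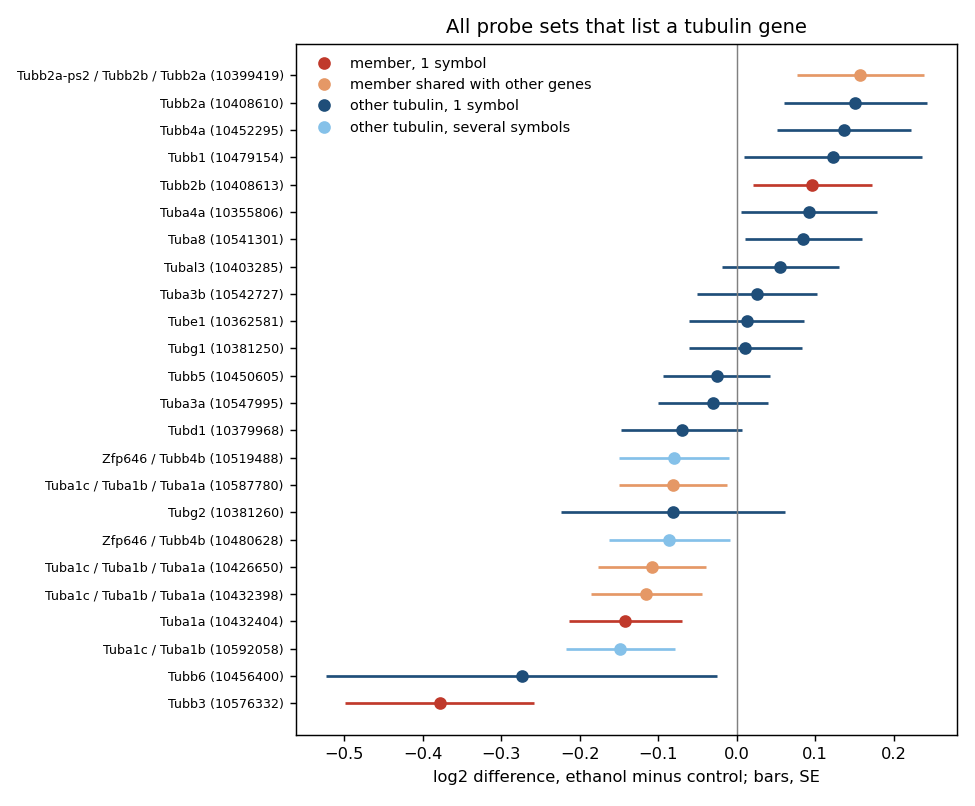
Log2 difference of ethanol minus control with its SE (horizontal axis, from the limma fit of every probe set, 2 arrays per group) for the 24 probe sets that list a tubulin gene, each named by its symbols and its probe set number. Tubb3 lies lowest at -0.38, the 5 Tuba1 sets lie below 0 and the 3 Tubb2 sets above 0.

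Of the 4 microtubule-associated proteins, Map2, Mapt and Dclk1 had slightly higher means in ethanol and Dcx a nearly equal one, and the 95% interval of each difference included 0. Dcx encodes doublecortin, the X-linked protein that bundles microtubules in migrating neurons and that is the classical marker of immature neurons. Doublecortin RNA read 12.99 and 13.01 (log2) in ethanol 1 and 2 and 12.99 and 13.02 in control 1 and 2. All 4 pools lay within 0.03 of each other, the smallest range of the 10 members, while Xist, another X-linked gene and a marker of female cells, read 6.10 in control 1 and 11.96 to 12.84 in the other pools. The log2 difference of Dcx was -0.01 ± 0.07 (SE, 2 arrays per group), with a 95% confidence interval from -0.17 to 0.15 that leaves out a 1.2-fold change in either direction.

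Dclk1 encodes a kinase with a doublecortin domain that acts together with Dcx. It stood at a log2 level of 13.06 in ethanol 1 and 13.02 in ethanol 2, with control 1 at 12.91 and control 2 at 13.00. The groups did not overlap, by only 0.02 between ethanol 2 and control 2, and control 1 stood apart from the other 3 arrays. Its mean was higher in ethanol by 0.08 ± 0.07 (SE, 2 arrays per group), and 0.04 without control 1.

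Map2 encodes the microtubule-associated protein of dendrites and cell bodies, and Mapt encodes tau, that of axons. Map2 read 13.13 and 13.09 (log2) in ethanol 1 and 2 and 13.03 and 13.09 in control 1 and 2, and its log2 difference was 0.05 ± 0.07 (SE, 2 arrays per group), which became 0.02 without control 1. Mapt read 11.70 and 11.66 in ethanol 1 and 2 and 11.49 and 11.69 in control 1 and 2. In both genes control 2 lay between the ethanol arrays and control 1 was lowest. The log2 difference of Mapt was 0.09 ± 0.09 (SE, 2 arrays per group), and without control 1 it was -0.01.

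Pafah1b1 encodes LIS1, which holds dynein on the microtubule and helps move the nucleus. At 10.94 and 11.21 (log2), ethanol 1 and 2 lay on either side of control 1 and 2, at 11.16 and 11.20. The groups overlapped: ethanol 2 was the highest of the 4 arrays and ethanol 1 the lowest. Its log2 difference was -0.10 ± 0.10 (SE, 2 arrays per group; 95% confidence interval -0.36 to 0.16), and 0.03 without ethanol 1.

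Of the stathmins, Stmn1 had both ethanol arrays below the controls and Stmn2 had them between the controls. Stmn1, the stathmin of progenitors and young neurons, read 13.28 and 13.50 (log2) in the ethanol pools 1 and 2, and 13.52 and 13.56 in the control pools 1 and 2. The groups did not overlap, but ethanol 2 lay only 0.02 below control 1, while ethanol 1 lay 0.22 below ethanol 2. Its log2 difference was -0.15 ± 0.09 (SE, 2 arrays per group; limma, adjusted p = 0.980), and -0.04 without ethanol 1. A second Stmn1 probe set, annotated with the same transcripts and so not independent, gave -0.16 ± 0.11, with ethanol at 13.12 and 13.36 and controls at 13.37 and 13.41. Stmn2 encodes SCG10, a stathmin of growth cones and growing axons. The ethanol pools 1 and 2 read 13.80 and 13.77 (log2), between control 1 at 13.72 and control 2 at 13.84. For Stmn2 the log2 difference was 0.01 ± 0.07 (SE, 2 arrays per group; 95% confidence interval -0.18 to 0.19). The difference between the stathmins was not tested.

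**Figure D3:**
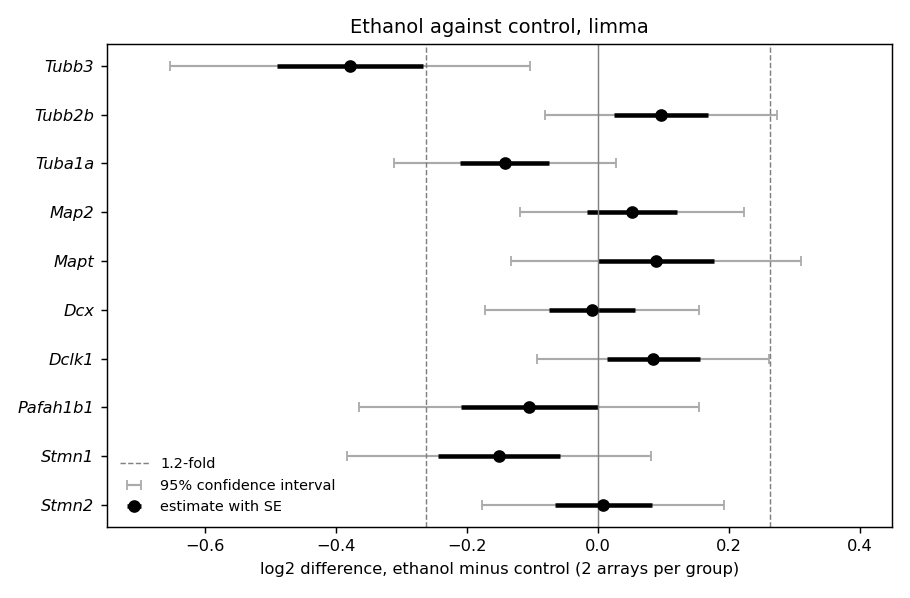
Log2 difference of ethanol minus control for each member (horizontal axis, 2 arrays per group), with the SE as a thick bar, the 95% confidence interval as a thin bar and dashed lines at a 1.2-fold change. The interval of Tubb3 alone lies wholly on one side of 0, and those of Dcx, Dclk1, Map2 and Stmn2 lie within the dashed lines.

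The intervals set bounds on the differences these arrays allow. For 9 of the 10 members, all but Tubb3, the 95% interval left out a 1.5-fold change in either direction. For Dcx, Dclk1, Map2 and Stmn2 it left out a 1.2-fold change as well. The variance behind each interval mixes the gene's own pool-to-pool variance with a value drawn from all genes. It has 2 residual degrees of freedom from the arrays and 5.65 in total after moderation. The standard errors of the members ran from 0.07 to 0.11, beside a median of 0.08 over all genes. The bounds above hold for this moderated fit. In the ordinary linear model, with 2 degrees of freedom, the 95% intervals of Pafah1b1 (SE 0.14) and Stmn1 (SE 0.11) reached a 1.5-fold change. Those of Dclk1 (SE 0.05) and Stmn2 (SE 0.06) reached a 1.2-fold change.

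A lower mean in a group by itself tends to place the lowest array there, so the lowest pool of each member is given beside the same over all genes. All 5 members lower in ethanol (Tubb3, Tuba1a, Dcx, Pafah1b1 and Stmn1) had their lowest value in ethanol 1, as did 4567 of the 9134 genes lower in ethanol. All 5 members higher in ethanol (Tubb2b, Dclk1, Map2, Mapt and Stmn2) had theirs in control 1, as did 5772 of the 10804 genes higher in ethanol. The gaps between the ethanol pools were widest in Tubb3 (0.30), Pafah1b1 (0.27) and Stmn1 (0.22), beside an SD of 0.17 for that difference over all genes. The gap between the control pools was widest in Mapt, where control 1 lay 0.20 below control 2, beside an SD of 0.22 over all genes. Control 1 was also lowest in 8 of the 12 neuron markers, and was the pool with the highest muscle, dividing cell and pericyte markers (9 of 10 pericyte and meningeal markers were highest there). The Y-linked Uty and Eif2s3y were highest in control 1 and next highest in ethanol 1. The part of these marker differences, sex among them, in the members' values was not tested.

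**Figure D4:**
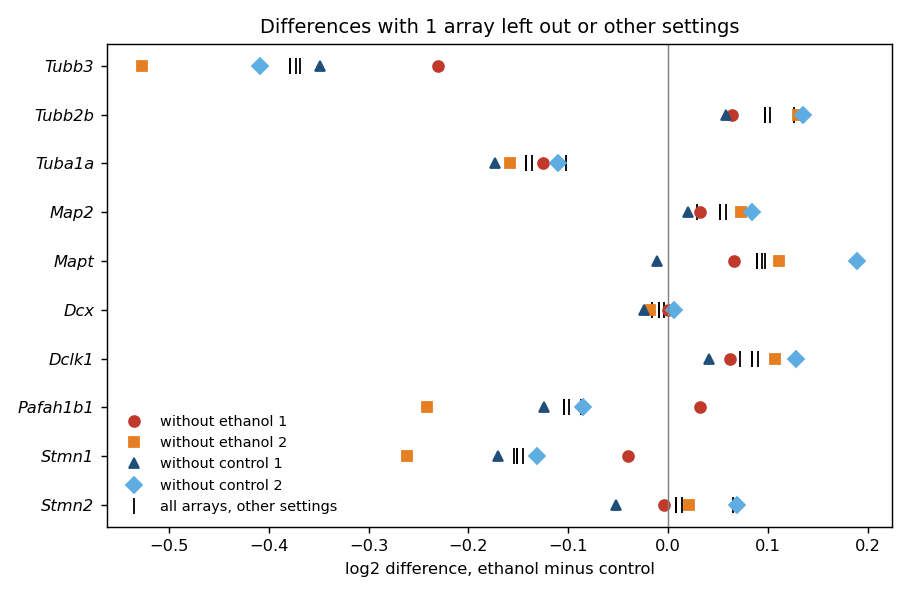
Log2 difference of ethanol minus control for each member (horizontal axis) with each array left out in turn (coloured symbols) and under the other settings with all arrays (black ticks). Tubb3 and Tuba1a stay below 0 throughout, from -0.53 to -0.23 and from -0.17 to -0.10, while the symbols of Pafah1b1, Mapt, Dcx and Stmn2 lie on both sides of 0.

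Other genes of the same machinery had median differences near 0, list by list. Of 14 other tubulin genes, 9 were higher and 5 lower in ethanol (median log2 difference 0.02) and 0 met the relaxed rule, beside 1.02% of all genes. Tubb2a stood highest, at the value given above, which became 0.06 without control 1. Tubb6, a further beta-tubulin, stood lowest at -0.27 ± 0.23 (SE), with 8.30 and 8.47 in the ethanol pools and 9.02 and 8.31 in the control pools. Without control 1, the pool high in muscle markers, it was 0.08, and the part of those markers in the Tubb6 value was not tested.

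Of 29 other microtubule-associated and stathmin genes, 15 were higher and 14 lower (median 0.0069) and 0 met the relaxed rule, beside 1.02% of all genes. The highest was Map9, a microtubule-associated protein of the spindle and cilia, at 0.22 ± 0.12, which became 0.05 without control 1. The lowest was Katna1, the catalytic subunit of the microtubule-severing enzyme katanin, at -0.11 ± 0.07.

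Of 27 other neuronal migration genes, among them the reelin pathway and the subunits of dynein, 12 were higher and 15 lower (median -0.0058). Flna, which encodes filamin A, an actin cross-linker mutated in periventricular heterotopia, alone met the relaxed rule, beside 1.02% of all genes. Ethanol 1 and 2 read 10.81 and 11.00 (log2) and control 1 and 2 read 11.25 and 11.10, so that the difference was -0.27 ± 0.10 (SE, 2 arrays per group; limma, adjusted p = 0.980). Without control 1 the difference was -0.19 and without ethanol 1 it was -0.17, and the rule was then not met. Nor was it met after quantile normalization (-0.25) or median centring (-0.26), which left the fold under 1.2, or with every probe set tested, the ordinary model or the replicate block, where the unadjusted limma or linear model p was 0.053, 0.156 and 0.060. In control 1, 7 of 8 endothelial and 9 of 10 pericyte and meningeal markers were highest, and their part in the Flna value was not tested. The highest of this list was Pafah1b3, a catalytic subunit of the enzyme that Pafah1b1 joins, at 0.11 ± 0.07.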

How the data were processed

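Per the labels' protocols, Trizol RNA was column-cleaned and labelled as biotinylated cDNA. The deposited values are log2 intensities, 1 per probe set and array. The submitters' processing notes name Partek 6.6. The log base was taken from the range of the values, and background correction and normalization are not stated. How bright tubulin probes near the top of the scale (array maxima 15.01 to 15.46) were treated is likewise not stated, and saturation there can shrink differences.

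Of 35556 probe sets, 21789 have 1 gene symbol, 1621 several and 12146 none in the platform annotation. Symbols were updated by Entrez identifier (21698 matched, RefSeq table of GRCm38.p6, used for names). For each of 19938 genes the probe set with the highest mean was kept, and ethanol and control were compared with limma 3.58.1 in R 4.3.3 (lmFit, eBayes, two-sided, Benjamini-Hochberg over all genes). The fit was checked on simulated data. The precision is limited by the number of arrays. The members, gene lists and tests were chosen with earlier results of these data known. From each list of microtubule and migration genes (marker lists are summarised only) the highest and lowest gene and any gene past a call rule are named; no p-value is given for a list. The table has 0 columns of other samples. Array medians ran from 8.01 to 8.04. Deviations of same-numbered arrays from their group means correlated at -0.48 over genes, and the labels do not say that the numbers pair the arrays.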

Additional observations from a re-analysis of the deposited data

How the results depend on the processing

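Alternatives covered the unit of testing, scaling, a filter on dim genes, variance models, a replicate block and leaving out each array. Under none of them was a member called at an adjusted p under 0.05. The relaxed rule was met by 1 member (Tubb3) and by 203 of 19938 genes in the main fit. In the ordinary linear model 0 members met it, and 37 genes did. At a fold of at least 1.5 the count of members was also 0, since the fold of Tubb3 was 1.30. Without ethanol 1 the Tubb3 difference was -0.23, under a fold of 1.2. The 5 members with groups apart ranged from 6 to 9 with an array left out, where 1 array alone stands for a group and overlap is less likely. The median log2 difference of the members ranged from -0.04 to 0.04 with an array left out.

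With an array left out, Dcx ranged from -0.024 to 0.0059, Pafah1b1 from -0.241 to 0.032, Mapt from -0.0112 to 0.189, Stmn2 from -0.052 to 0.0688 and Tubb6 from -0.63 to 0.0819, so these crossed 0. Tubb3, Tubb2b, Tuba1a, Dclk1, Map2 and Stmn1 kept their direction under every alternative run.

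Same-numbered arrays are not said to be paired. With the replicate number as a block in limma Tubb3 stood at -0.38. There 0 members and 0 of 19938 genes passed an adjusted p under 0.05, and 1 member and 196 genes met the relaxed rule. No pairing was crossed in the fits here.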

Other observations

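Among 13 genes that fold or modify tubulin, 6 were higher and 7 lower in ethanol (median log2 difference -0.0021), and 0 passed the adjusted threshold, where 0% of all genes did. At an unadjusted p under 0.05 (limma) there were 3 of 13, among them Tbcb and Tpgs1, where 2.94% of all genes had one. The remaining gene lies outside the rule by which genes are named here. Tbcb, a cofactor that helps fold alpha-tubulin before it joins beta-tubulin, alone met the relaxed rule, beside 1.02% of all genes. In the ordinary linear model it did not meet the rule. Ethanol 1 and 2 read 9.39 and 9.75 (log2) and control 1 and 2 read 9.98 and 10.18, and both ethanol pools lay below both control pools. The log2 difference was -0.51 ± 0.14 (SE, 2 arrays per group; limma, adjusted p = 0.980), and it ranged from -0.69 to -0.33 with an array left out. As in Tubb3, ethanol 1 was the lowest array. The highest of the list was Tpgs1, a subunit of the tubulin polyglutamylase complex, at 0.25 ± 0.07, with 9.18 and 9.14 in the ethanol pools and 8.87 and 8.95 in the control pools. Its fold lay just under 1.2. After quantile normalization the difference was 0.28 and Tpgs1 met the relaxed rule (limma, unadjusted p = 0.0088). With an array left out it ranged from 0.21 to 0.29.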
